A study of Mus musculus with 2 samples.

Results

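Peaks of open chromatin that lie over 100 kb from any coding gene are described here in AB22, a malignant mesothelioma line of the mouse, with and without silencing of Hmgb1. A peak was taken as distant where the midpoint of its listed interval on chromosomes 1 to 19 lay more than 100 kb from every coding gene body of the RefSeq table of GRCm38.p6 (mm10). In all, 14919 of 193210 distinct autosomal intervals met this rule, 7583 of the 102858 in the control library and 7363 of the 90479 in the silenced library, with 27 listed identically in both. The assay was ATAC-seq, which treats permeabilised cells with the transposase Tn5 so that adapters enter the DNA where chromatin is open. Both groups carried pTRIPZ, a lentiviral vector with a doxycycline-inducible short hairpin RNA, infected at a multiplicity of 20 and selected with 4 µg/mL puromycin. One group expressed a control hairpin (shCTRL) and the other a hairpin against Hmgb1 (shHMGB1), both after 1 µM doxycycline for 7 to 10 days, and no radiation dose is given for these libraries. Each group is 1 library from transduced cells of 1 line, so there is no replicate error to judge a difference by, and every interval below is a 95% interval that covers counting error only.

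Sequence far from coding genes holds gene deserts, long noncoding RNA genes and repeats, and it also holds enhancers, short elements that bind transcription factors and can act on promoters over long distances. Active enhancers are free of nucleosomes over a short core and are therefore cut by Tn5. HMGB1 is an abundant chromatin protein that binds DNA without a fixed sequence and bends it, and cells that lack it have been reported to hold fewer histones. AP-1, a dimer of Fos and Jun family proteins, and TEAD factors, the DNA-binding partners of YAP, are among the factors that bind enhancers in cells of mesenchymal and mesothelial type.

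The depth of the lists bears on each comparison. The number of fragments over a summit is called its pileup. The peak caller expected a pileup of 2.79 fragments for shCTRL but 1.68 for shHMGB1, which is 0.603 times as many, and the height of a peak is its pileup divided by this background. The lowest pileup listed was 10 in shCTRL and 7 in shHMGB1, which are heights of 3.58 and 4.15, so the lists start at different heights. Of 12 mesothelial marker genes, 2 had a peak within 1 kb of an annotated end in both libraries, Msln, which encodes mesothelin, and Pdpn, which encodes podoplanin, with 5 in shCTRL and 3 in shHMGB1. The keratin genes Krt8 and Krt18 had none in either. Of the other marker lists, 3 of 6 fibroblast genes had such a peak in both libraries, as did 1 of 7 leukocyte, 1 of 5 epithelial, 0 of 4 endothelial and 1 of 4 neuronal genes, and the part of other cells in the results was not tested. The share of all coding genes with such a peak is not given here, so whether these counts are high or low was not tested. For promoter windows, a shorter region defined below, 36.5% of all 31396 on the autosomes overlapped a peak of each library. The marker counts were therefore not read as a sign of cell identity. The level of Hmgb1 itself was not analysed here.

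The promoters of long noncoding RNA (lncRNA) genes are the distant regions whose sequence could be read. As examples, 4 of those with high peaks in both libraries are printed below, and they need not stand for the rest. Each is the window from 250 bases before to 50 bases after the gene's start in RefSeq (GRCm38.p6), 5′ to 3′ on the strand of the gene. Capitals mark matches, on either strand, to 5 motifs: TGANTCA for AP-1, GGAATG for TEAD, GGGCGG for the GC box, CCAAT for the CCAAT box and TATAAA for the TATA box. None of these motifs holds another, but neighbouring matches can share bases. The windows are Gm26901 (chr1:7398047-7398346, minus strand), Gm6634 (chr3:70807242-70807541, minus strand), 4930471E19Rik (chr10:120636058-120636357, minus strand) and Gm8883 (chr1:71887862-71888161, plus strand).
Gm26901: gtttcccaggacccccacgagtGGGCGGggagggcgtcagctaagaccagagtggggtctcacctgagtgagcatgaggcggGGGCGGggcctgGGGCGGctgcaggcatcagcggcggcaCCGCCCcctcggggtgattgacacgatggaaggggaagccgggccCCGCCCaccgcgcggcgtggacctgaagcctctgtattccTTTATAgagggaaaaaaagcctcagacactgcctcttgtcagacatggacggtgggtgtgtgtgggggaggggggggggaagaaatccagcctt
Gm6634: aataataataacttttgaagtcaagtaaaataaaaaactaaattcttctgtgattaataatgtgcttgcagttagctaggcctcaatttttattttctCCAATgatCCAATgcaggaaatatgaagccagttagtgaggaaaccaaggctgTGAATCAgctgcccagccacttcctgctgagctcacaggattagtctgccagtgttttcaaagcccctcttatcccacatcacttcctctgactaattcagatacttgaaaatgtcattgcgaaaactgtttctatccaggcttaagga
4930471E19Rik: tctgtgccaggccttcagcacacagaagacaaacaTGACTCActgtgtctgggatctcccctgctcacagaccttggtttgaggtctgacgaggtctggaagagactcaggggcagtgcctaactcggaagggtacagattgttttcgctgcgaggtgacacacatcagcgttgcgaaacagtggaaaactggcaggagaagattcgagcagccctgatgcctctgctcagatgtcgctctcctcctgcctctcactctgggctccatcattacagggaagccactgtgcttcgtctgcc
Gm8883: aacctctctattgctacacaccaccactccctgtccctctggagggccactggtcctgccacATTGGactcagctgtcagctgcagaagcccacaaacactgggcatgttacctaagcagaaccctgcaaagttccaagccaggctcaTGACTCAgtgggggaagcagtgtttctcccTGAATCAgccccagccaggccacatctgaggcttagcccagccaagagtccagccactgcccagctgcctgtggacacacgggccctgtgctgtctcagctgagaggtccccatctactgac
The window of Gm26901 is rich in G and C (65.7%) and holds GC boxes from base 23 to base 167, counted from the first base printed. Its TATA match, at base 207, is on the strand opposite to the gene. The summits at Gm26901 lay past the end of the window, at bases 351 in shCTRL and 363 in shHMGB1. The window of Gm6634 is 38.3% G and C, with 2 CCAAT matches at bases 99 and 107 and an AP-1 match at base 152. Its summits lay at bases 147 in shCTRL and 155 in shHMGB1, next to the AP-1 match. The window of 4930471E19Rik has an AP-1 match at base 36, and its summits lay at bases 49 and 27. Gm8883 has 2 AP-1 matches, at bases 149 and 179, and its summits lay at bases 171 and 183. In the last 3 windows the summits of both libraries lay near the AP-1 letters, and all 4 windows were picked for printing after their values and matches were seen. Among other windows with tall peaks, those of Gm13470 (pileups of 108 and 97) and Gm34503 (82 and 92) held none of the 5 motifs. At Gm33624, with an AP-1 match at base 145, the summits lay at bases 185 and 177.

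Of 2017 promoter windows in distant sequence, which belong to 1704 genes, all of them lncRNA genes, 69 overlapped a peak of each library, 27 only one of shCTRL, 27 only one of shHMGB1, and 1894 overlapped none. The share open in both was 3.42% (2.67 to 4.31%), against 36.5% of all 31396 autosomal promoter windows and 16.7% of the 9294 windows of lncRNA genes that are not distant. No peak was listed at 93.9%, against 58.7% of all and 78.8% of the lncRNA windows that are not distant. The AP-1 motif stood in 26.1% of the 69 windows open in both libraries (16.3 to 38.1%), in 9.61% of the 1894 without a peak (8.32 to 11.0%) and in 7.81% of all 32851 promoter windows of the table. The GC box stood in 20.3% of the windows open in both (11.6 to 31.7%), in 4.75% of those without a peak (3.84 to 5.81%) and in 35.7% of all promoter windows. The TATA box went the other way, with 5.80% of the windows open in both against 20.8% of those without a peak and 13.6% of all. The TEAD motif stood in 26.1%, 16.3% and 14.7% of the same sets, and the CCAAT box in 37.7%, 39.9% and 37.4%. Base content moved with these shares, since the windows open in both had a median of 50.3% G and C and those without a peak 44.7%, and its part in them was not tested. The 69 windows belong to 60 genes, and some windows overlap or lie at the same peak. They are thus not independent, and the intervals of these shares may be too narrow. The motifs were chosen with the peaks known, and a match describes letters and does not show binding.

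The tallest lncRNA promoter peak was at Gm26901, with a pileup of 171 (146 to 199) in shCTRL beside 202 (175 to 232) in shHMGB1. Gm6634 had 71 (55.5 to 89.6) and 106 (86.8 to 128), and 4930471E19Rik had 50 (37.1 to 65.9) and 64 (49.3 to 81.7). At Gm8883 both libraries had 52 (38.8 to 68.2). To set pileups of the libraries side by side, their log2 ratio (shHMGB1 over shCTRL) was taken relative to the median of all autosomal summits listed within 150 bp in both libraries, which was −0.21. On this scale Gm6634 stood at 0.78 (0.34 to 1.24), Gm26901 at 0.45 (0.15 to 0.75), 4930471E19Rik at 0.56 (0.01 to 1.13) and Gm8883 at 0.21 (−0.38 to 0.79). The intervals of the first 3 lie above the median site and that of Gm8883 includes it. Distant sites of this size had a median of 0.24 on the same scale, so that only the interval of Gm6634 lies above that of its like. Dubr, an lncRNA with a given name, had pileups of 47 and 38, at −0.10 (−0.76 to 0.55), which also includes the median site.

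**Figure D1:**
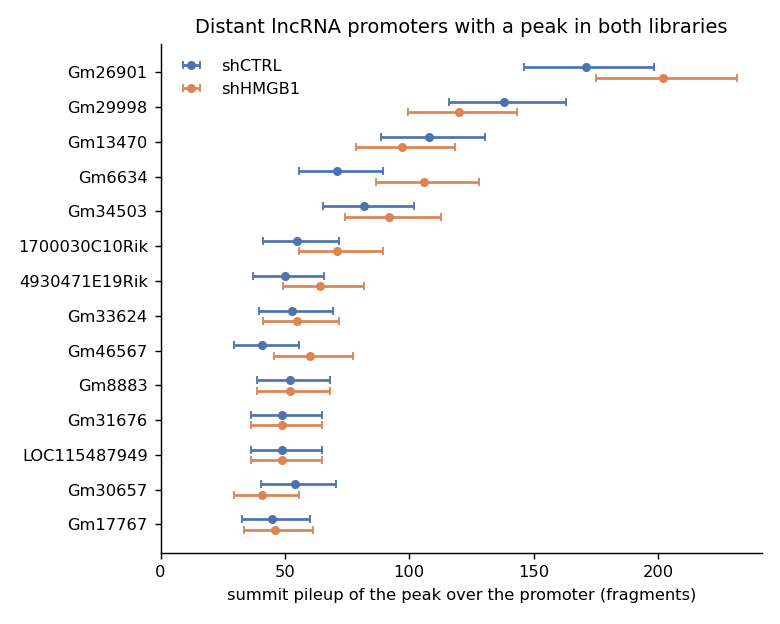
Summit pileup, in fragments, of the peak over the promoter of the distant lncRNA genes with the highest pileups in both libraries. Gm31676 and LOC115487949 lie at the same peak. At some genes, such as Gm26901 and Gm34503, the summit lies outside the promoter window. Points are single libraries (blue shCTRL, orange shHMGB1) and bars are exact Poisson 95% intervals. The bars overlap between the libraries at each of these promoters, and the points stand highest at Gm26901 (171 and 202).

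Distant sequence made up 657 Mb, or 27.3%, of the 2403 Mb of autosomes examined, in 1395 stretches, and it held few peaks for its length. There were 11.5 distant peaks per Mb of distant sequence in shCTRL and 11.2 in shHMGB1, against 54.6 and 47.6 peaks per Mb of other sequence. Of the 1395 stretches, 433 held no peak in either library, and so did 15 of the 185 stretches of 1 Mb or more. The 3 longest stretches held few peaks. Between Pcdh20 and Pcdh9, protocadherin genes on chromosome 14, 4.34 Mb held 6 peaks in shCTRL and 3 in shHMGB1. Between Celf4 and Pik3c3 on chromosome 18, 4.31 Mb held 6 and 5, and between Olfm4 and Pcdh17 on chromosome 14, 4.22 Mb held 2 and 1.

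Of all autosomal peaks, the distant ones were 7.37% (7.21 to 7.53%) for shCTRL and 8.14% (7.96 to 8.32%) for shHMGB1. The share was thus larger in shHMGB1, while the number was slightly smaller, with a ratio of 0.971 (0.940 to 1.00). The direction of this ratio was not stable. It was 1.06 for peaks with a deposited −log10 q of at least 5, 1.12 with lists of equal length, 1.30 for peaks of height 5 or more, 1.05 without chromosomes 2 and 4, 1.04 without the 10 densest windows described below, and 1.09 for distance from genes of any kind. The larger share in shHMGB1 was seen under each of these 6 settings. With the q limit it was 7.19% (6.96 to 7.42%) in shCTRL and 7.39% (7.16 to 7.62%) in shHMGB1, and these intervals overlap. On chromosomes 6, 12 and 18 the order was reversed, with 9.39%, 15.6% and 7.02% in shCTRL and 7.91%, 13.1% and 6.33% in shHMGB1. On the other chromosomes shHMGB1 had the larger share. A larger share in shHMGB1 was not particular to distant peaks. Peaks 10 to 100 kb outside coding genes were 19758 of 102858 in shCTRL and 18452 of 90479 in shHMGB1, also a larger share. Just inside the threshold, between 100 and 110 kb, lay 679 peaks of shCTRL and 660 of shHMGB1, and just outside, between 90 and 100 kb, 752 and 703. Median widths on the 2 sides were 160 and 160 bp in shCTRL, and 166 bp inside and 178 bp outside in shHMGB1.

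Distant peaks were narrow compared with peaks at gene ends and resembled the other peaks away from them. Their median width was 162 bp (158 to 165) for shCTRL beside 178 bp (172 to 182) for shHMGB1, against 179 and 205 bp over all autosomal peaks and 337 and 388 bp for peaks within 1 kb of the ends of coding genes. Peaks inside coding genes had medians of 161 and 186 bp, and those 10 to 100 kb outside them 172 and 192 bp. The median pileup was 15 fragments in shCTRL and 12 in shHMGB1, which are heights of 5.37 and 7.12, against pileups of 15 and 13 over all autosomal peaks. The heights carry the difference in background and in the lowest height listed, so that their order was not read as a difference in openness. The pileup of 8.78% of the distant peaks of shCTRL and 9.0% of those of shHMGB1 was the lowest in their list. A single summit was listed for 74.5% (73.5 to 75.5%) of the distant peaks of shCTRL and 74.0% (73.0 to 75%) of those of shHMGB1, with 11484 and 11069 summits in all. Only 1.62% and 1.91% were wider than 1 kb. The number of summits per peak was close between the libraries, with overlapping intervals. The median widths of peaks 250 to 500 kb away from coding genes were 159 bp in shCTRL and 178 bp in shHMGB1, and those of peaks 500 to 1000 kb away 162 and 175 bp. The few peaks beyond 1000 kb, 116 in shCTRL and 104 in shHMGB1, were narrower, with medians of 126 bp (112 to 144) and 146 bp (113 to 189), and 44.0% (34.8 to 53.5%) and 49.0% (39.1 to 59.0%) of them overlapped a peak of the other library.

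A peak was counted as shared where it overlapped a peak of the other library by at least 1 bp. Of the distant peaks, 59.3% (58.2 to 60.4%) of shCTRL and 61.5% (60.4 to 62.6%) of shHMGB1 were shared, against 59.7% and 69.0% of all autosomal peaks. The distant peaks of shHMGB1 were thus less often shared than the list they came from, and those of shCTRL about as often. Peaks at coding gene ends were shared at 71.2% in shCTRL and 84.9% in shHMGB1. Sharing followed height. Below a height of 5, 27.3% (25.7 to 29.0%) of the distant peaks of shCTRL and 23.4% (21.3 to 25.7%) of those of shHMGB1 had a counterpart, and the other autosomal peaks of that height had one in 26.4% and 31.6%. Between heights of 10 and 15 the distant shares were 99.6% and 95.5%, and from a height of 25 upwards every distant peak of either library was shared. In shHMGB1 the distant share lay below that of other peaks up to a height of 10, with 44.8% against 50.9% between 5 and 7.5 and 75.7% against 80.5% between 7.5 and 10. In shCTRL it was 64.0% against 61.2% and 96.0% against 97.1%, with no single order.

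**Figure D2:**
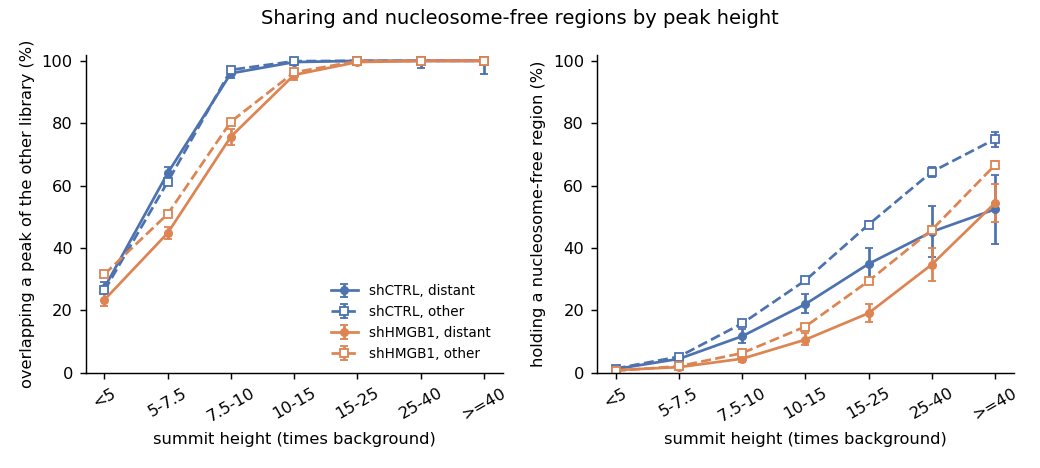
Share of peaks overlapping a peak of the other library (left) and share holding a nucleosome-free region (right), in percent, by summit height in multiples of background. Filled points are distant peaks and open points other autosomal peaks, blue for shCTRL and orange for shHMGB1, with exact 95% intervals; sharing rises to 100% with height in each set, and distant peaks hold fewer nucleosome-free regions than other peaks from a height of 7.5 upwards.

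Distant peaks without a counterpart were small. Their median pileup was 12 fragments and their median width 106 bp in shCTRL, and 9 fragments and 100 bp in shHMGB1, against 20 fragments and 238 bp, and 16 fragments and 270 bp, for the shared ones. The highest without a counterpart in shCTRL lay at chr9:112790407-112790584, 554207 bp from Arpp21, with a pileup of 32 (21.9 to 45.2). It was followed by a pileup of 28 (18.6 to 40.5) at chr13:5141375-5141538, between Akr1e1 and Klf6, and the same at chr3:8051297-8051412, between Il7 and Stmn2. A pileup of 26 (17.0 to 38.1) was listed at chr8:20097377-20097584. In shHMGB1 the highest was chr3:6049547-6049942, 471148 bp from Pex2, with 41 (29.4 to 55.6). A pair of such peaks stood next to each other between Ptprd and Tyrp1, with 28 at chr4:80003730-80004038 and 23 at chr4:80004651-80005237. The others were chr15:7596922-7597203, between Egflam and Gdnf, with 26, and chr15:63269237-63269333, between Myc and Gsdmc, with 23. With 1 library a group, a peak listed in 1 library alone may lie under the limit of the other list, so none of these is a change between conditions.

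The deposited nucleosome-free regions are a readout that the rule did not use. They overlapped 8.58% (7.96 to 9.24%) of the distant peaks of shCTRL and 8.18% (7.56 to 8.83%) of those of shHMGB1, against 12.7% and 13.3% of all autosomal peaks and 29.4% and 29.8% of peaks at coding gene ends. The shares away from gene ends were like those of distant peaks, with 8.53% and 9.87% of peaks inside coding genes and 9.97% and 9.59% of those 10 to 100 kb outside them. Below a height of 5 the distant and other shares were 1.19% (0.837 to 1.65%) and 1.35% in shCTRL and 0.839% (0.434 to 1.46%) and 0.614% in shHMGB1, and between 5 and 7.5 they were 4.44% (3.65 to 5.35%) and 5.15%, and 1.79% (1.32 to 2.38%) and 2.08%, with no difference beyond these intervals. Among taller peaks the distant ones held such a region less often than all other peaks, gene ends included. Between heights of 15 and 25 the share was 34.9% (30.2 to 39.9%) of distant against 47.5% of other peaks in shCTRL, and 19.1% (16.3 to 22.1%) against 29.4% in shHMGB1. From a height of 40 upwards it was 52.4% (41.2 to 63.4%) against 74.9%, and 54.4% (48.2 to 60.6%) against 66.6%. Distant peaks with such a region were the larger ones, with a median pileup of 34 fragments and width of 426 bp in shCTRL, and 35 fragments and 532 bp in shHMGB1.

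At the positions listed in both libraries, distant peaks had nearly the same ratio of pileups as autosomal peaks in general. The 3998 distant peaks with summits within 150 bp of each other had a median log2 ratio of 0.01 (−0.02 to 0.03) relative to the median autosomal site. Without that centring the median log2 ratio of pileups was −0.20, and that of heights, which divides by the lower background of shHMGB1, was 0.53, against 0.52 over all matched autosomal summits. A ratio 2-fold or more higher in shHMGB1 than the median site was found at 52 of them, or 1.30%, against 1.00% of all matched autosomal summits, and one 2-fold or more lower at 117, or 2.93%, against 1.90%. No interval was taken for these shares, the share higher in shHMGB1 lay near the background, and most of the sites behind both are low. Of the 1023 distant sites with a summed pileup of at least 60, the interval lay above the median site at 174, or 17.0%, against 13.0% of all such autosomal summits, and below it at 33, or 3.23%, against 1.98%. The median of these 1023 was 0.24 (0.21 to 0.25), and that of all 17192 autosomal summits of this size 0.16, each relative to the median over matched summits of any size, so that both sets of tall sites lay above it.

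The tallest distant peaks stood far above the rest and lay at a few positions. The peak chr2:98666172-98667374, about 1 Mb from Lrrc4c, had a pileup of 5300 in shCTRL and 5706 in shHMGB1, and its neighbours chr2:98662158-98663066 and chr2:98664829-98665260 had 1857 and 2020, and 1271 and 1272. At chr9:2999960-3001555 the pileups were 1002 and 1042, at chr14:19415685-19419757 they were 802 and 828, at chr9:3024954-3026014 they were 731 and 737, and at chr12:3109809-3110155 they were 599 and 606. These 7 peaks had nearly the same pileup in both libraries and stood at 0.21 to 0.33 on the log2 scale relative to the median site, around the 0.24 of tall distant sites in general. The eighth, chr13:3372641-3373780, had 794 (740 to 851) for shCTRL and 487 (445 to 532) for shHMGB1, or −0.50 (−0.66 to −0.33). Several lie at the start of the assembled chromosome, which in the mouse borders the centromeric repeats. Positions below 4 Mb held 195 distant peaks of shCTRL and 220 of shHMGB1. Among them were 29 of the 101 and 22 of the 105 with a pileup over 100. Leaving these positions out kept every share and median within its interval. That setting did not remove chr2:98666172-98667374, its neighbours or chr14:19415685-19419757, which lie above 4 Mb. Whether pileups as high as those named here mark open chromatin was not tested.

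The widest peak of shCTRL, chr16:3231535-3241841, spanned 10307 bp with 56 summits, and the peak over it in shHMGB1 spanned 4096 bp with 23. The widest of shHMGB1, chr17:39842922-39848909, spanned 5988 bp with 38 summits and had 35 in shCTRL. It lies over Rn18s-rs5, an 18S ribosomal RNA pseudogene, and AY036118, an lncRNA, and its pileup was 793 (739 to 850) for shCTRL and 370 (333 to 410) for shHMGB1. The log2 ratio there was −0.89 (−1.08 to −0.71), well below the median site. Peaks with many summits at chr4:3049975-3056592 (42 and 13 summits, pileups of 95 and 55) and chr17:3006325-3011250 (34 and 10 summits, pileups of 95 and 34) were also lower in shHMGB1, at −0.58 (−1.09 to −0.09) and −1.28 (−1.89 to −0.70). How many copies of such sequences the cells carry, and where their reads were placed, was not analysed here.

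Among the tall peaks away from these places, chosen after their values were seen as those above 4 Mb with a mean height under 100, 7 of 8 were higher in shHMGB1 relative to the median site, as tall distant sites were in general, with their median of 0.24. The largest ratio was at chr2:137715826-137716356, over the lncRNA Gm14064 and between Jag1, which encodes a Notch ligand, and Btbd3, with pileups of 137 (115 to 162) and 205 (178 to 235), at 0.79 (0.47 to 1.11). The peak chr15:6056553-6057393, between Ptger4, which encodes a prostaglandin E2 receptor, and Dab2, had 160 and 186, at 0.42 (0.11 to 0.74). The peak chr2:148184620-148185528, 138104 bp from Foxa2, which encodes a forkhead transcription factor, had 152 and 189, at 0.52 (0.21 to 0.84). The exception was chr4:28176760-28177198, over the lncRNA Gm52725 and between Manea and Epha7, which encodes an ephrin receptor, with 222 (194 to 253) and 121 (100 to 145), at −0.67 (−1.0 to −0.34). That peak alone of the 8 had the lower height in shHMGB1.

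Distant peaks were unevenly spread over the chromosomes. Per Mb of distant sequence, shCTRL had from 4.17 peaks on chromosome 5 to 30.3 on chromosome 2, and shHMGB1 from 4.60 on chromosome 18 to 21.1 on chromosome 2. On 6 chromosomes there were more distant peaks in shCTRL and on 13 more in shHMGB1. Chromosome 2 had 1196 in shCTRL and 835 in shHMGB1, and chromosome 4 had 974 and 843, together 28.6% and 22.8% of all distant peaks. On chromosome 2, 35.5% of the shCTRL peaks were shared, against 85.0% on chromosome 3, which had 467 and 638 distant peaks. Chromosomes 2, 4, 15 and 6, which had the most shCTRL peaks per Mb of distant sequence, had 35.5%, 48.4%, 51.7% and 46.4% of them shared, all below the 59.3% over all chromosomes.

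**Figure D3:**
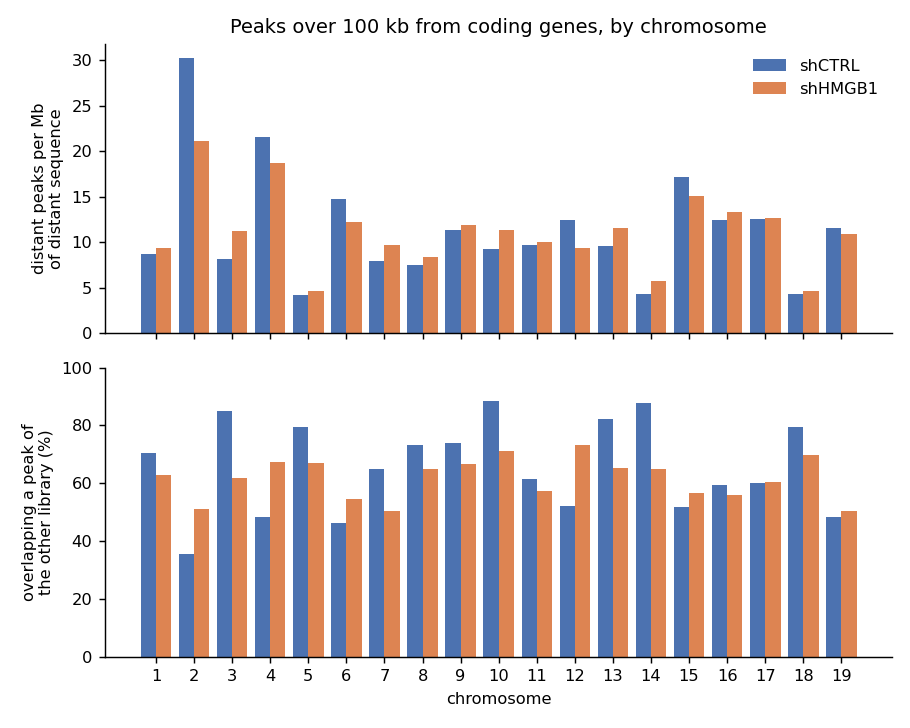
Distant peaks per Mb of distant sequence (top) and percent of distant peaks overlapping a peak of the other library (bottom), by chromosome, for shCTRL (blue) and shHMGB1 (orange), 1 library each. Chromosome 2 stands out with 30.3 and 21.1 peaks per Mb and with the lowest share of shCTRL peaks shared, 35.5%.

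Most distant peaks had another close by. Measured between midpoints, 71.2% (70.2 to 72.2%) of the distant peaks of shCTRL and 70.4% (69.4 to 71.5%) of those of shHMGB1 had another distant peak of the same library within 10 kb, against 84.2% and 82.2% of all autosomal peaks with any peak that close. The median gap to the nearest one was 2214 bp in shCTRL and 2862 bp in shHMGB1, against 1089 and 1410 bp for other peaks. Distant peaks were therefore more widely spaced than other peaks, though their density per Mb was lower by more than their gaps were longer. Runs in which neighbours lay within 10 kb and that held 5 or more peaks contained 37.7% of the distant peaks of shCTRL, in 242 runs, and 30.9% of those of shHMGB1, in 260 runs. Runs of 20 or more peaks numbered 33 in shCTRL and 12 in shHMGB1. In shCTRL 46.1% of the peaks in runs of 5 or more were shared and 61.2% of the single ones, and in shHMGB1 68.2% and 53.3%, so that the order was opposite in the 2 libraries.

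**Figure D4:**
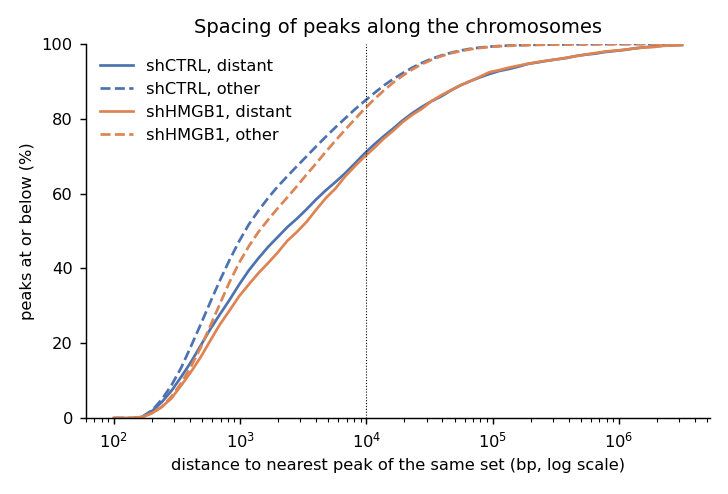
Cumulative percent of peaks against the distance to the nearest peak of the same set (bp, log scale), solid for distant and dashed for other autosomal peaks, blue for shCTRL and orange for shHMGB1. The dotted line marks 10 kb, where the distant curves stand at 71.2% and 70.4%, below the curves of other peaks.

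The largest run of either library was the same stretch of chromosome 4. It held 120 peaks at chr4:131056787-131178155 in shCTRL, 77.5% of them shared, and 186 at chr4:131056908-131178268 in shHMGB1, 94.6% shared, between Matn1, which encodes the cartilage protein matrilin 1, and Ptpru, which encodes a receptor phosphatase. The median pileup in it was 19 in shCTRL and 11 in shHMGB1. A second run on that chromosome, between Nphp4 and Ajap1, held 88 peaks at chr4:152663508-152723288 in shCTRL and 69 at chr4:152664019-152723290 in shHMGB1, with 50% and 85.5% shared. The third of shCTRL, 83 peaks at chr4:142341947-142471141 near Kazn, had only 8.43% shared. The third of shHMGB1 was at the start of chromosome 3, with 53 peaks at chr3:3000221-3050936 and 92.5% shared.

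In windows of 1 Mb, 1089 of the 1608 that contain distant sequence held a distant peak in either library, with more peaks in shCTRL in 342, more in shHMGB1 in 519 and equal numbers in 228. The 10 windows with the most distant peaks, 0.784% of the distant sequence, held 1239 peaks of shCTRL, or 16.3%, and 739 of shHMGB1, or 10.0%. Within them 29.1% of the shCTRL peaks and 64.7% of the shHMGB1 peaks were shared, and outside them 65.2% and 61.1%. Nucleosome-free regions stood in 1.05% and 1.08% of the peaks inside and in 10.1% and 8.97% of those outside, and the median heights inside were 4.65 and 5.34. These windows thus held many low peaks with few nucleosome-free regions, and more of them in shCTRL. Copy number and repeats in these windows were not analysed here.

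By window, the most peaks lay at 131 Mb of chromosome 4, with 179 in shCTRL and 211 in shHMGB1. At 142 Mb of chromosome 4, between Kazn and Prdm2, there were 157 and 58, of which 11.5% and 31.0% were shared. The adjoining windows at 178 and 179 Mb of chromosome 2, to one side of Cdh26, which encodes a cadherin, had 138 and 55, and 145 and 38. At 115 Mb of chromosome 12 there were 160 and 129. That window lies in Igh, the immunoglobulin heavy chain locus (chr12:113258768-116009954), which counts as distant because the table does not list its gene segments as coding. All of Igh held 284 distant peaks of shCTRL, 45.1% shared, and 191 of shHMGB1, 75.9% shared. Counting immunoglobulin and T cell receptor segments as genes lowered the distant shares to 7.08% and 7.91%.

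**Figure D5:**
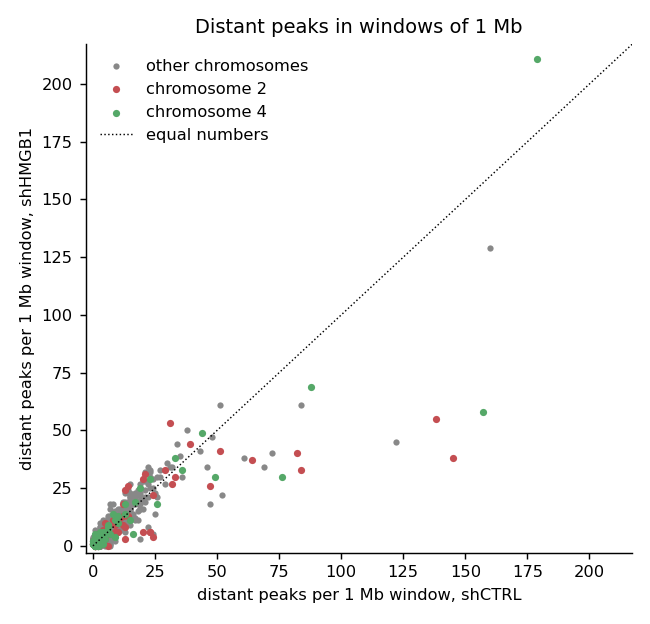
Distant peaks per window of 1 Mb in shCTRL (x axis) and shHMGB1 (y axis), each point 1 window, with chromosomes 2 and 4 coloured and a dotted line at equal numbers. Most windows lie near the line, while several dense windows of chromosomes 2 and 4 lie far below it, such as 157 against 58 and 145 against 38. A dense window of chromosome 15 also lies far below the line, with 122 against 45.

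Distant peaks were set beside their nearest coding gene, by lists of genes with known roles, with the reserve that the nearest gene need not be the one an element acts on. Per Mb of distant sequence, genes of adhesion and synapse had 2.28 peaks in shCTRL and 2.25 in shHMGB1 over 60.5 Mb, far fewer than the 11.5 and 11.2 over all distant sequence. Developmental transcription factors had 11.8 and 12.7, close to that background. Secreted signals and receptors had 17.4 and 21.2, and mesothelial and mesenchymal transcription factors 23.6 and 31.5. Of the AP-1 and Maf genes, 3 of 14 had distant sequence, only 0.566 Mb, with 81.2 and 65.3 peaks per Mb. The mesothelial and mesenchymal values rest on 12 of 22 genes with 4.67 Mb of distant sequence. Most of the 110 and 147 peaks of that list lay nearest to Zeb2, Klf4 and Klf6. Secreted signals and receptors rest on 18 of 26 genes with 3.67 Mb. Density also differed between chromosomes, with 30.3 and 21.1 on chromosome 2, which holds Zeb2. The lists were not set against their own chromosomes, and were compared by these densities alone, without a test.

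Zeb2, which encodes a repressor of epithelial genes, had the most distant peaks of the mesenchymal list, 34 in shCTRL and 55 in shHMGB1, of which 33 and 34 were shared. Klf4, which encodes a zinc finger transcription factor, had 31 and 36, Klf6, of the same family, 21 and 26, and Runx1, which encodes a runt domain transcription factor, 10 and 12. In this list 90.9% of the shCTRL peaks and 66.7% of the shHMGB1 peaks were shared, against 59.3% and 61.5% of all distant peaks. Near Jun, which encodes an AP-1 subunit, there were 29 and 16 peaks, the highest with pileups of 109 and 96. Maf, which encodes a basic leucine zipper factor, had 9 and 10.

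Of the secreted signals, Tgfb2, which encodes a TGF-β ligand, had 18 and 23 distant peaks, with highest pileups of 112 and 116. Cxcl12, which encodes a chemokine, had 15 and 22, Bmp2 11 and 3, and Bmp4 6 and 7, the last a pair of genes for bone morphogenetic proteins. None of the peaks nearest to Bmp2 was shared and their highest pileups were 14 and 9, close to the limits of the lists. Of the developmental factors, Nr2f2, which encodes a nuclear receptor of mesenchyme, had 19 and 24, Irx1 21 and 22, Sox9 19 and 14 and Tshz2 28 and 15. Those of Tshz2 were low, with 2 shared in each library. In the adhesion list Pcdh18 had 20 and 23, Flrt2 18 and 19, Cdh11 12 and 14 and Cdh9 13 and 12, so that these members had similar numbers in both libraries.

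The bodies and ends of noncoding genes were also set beside the distant peaks. Shares over all autosomal peaks and all such genes are not given here, so whether these counts are high or low was not tested. An lncRNA body was overlapped by 18.4% (17.6 to 19.3%) of the distant peaks of shCTRL and 19.2% (18.3 to 20.1%) of those of shHMGB1. A distant peak within 1 kb of an end of a noncoding gene with a name of its own was listed for 78 genes, for 48 of them in both libraries. The highest were at Rn18s-rs5, described above, and at Mir101c near the start of chromosome 9, with pileups of 124 and 165. They were followed by Rnls, which the table lists as a transcribed pseudogene, with 138 and 120, the tRNA gene n-TEttc7 with 95 and 92, the T cell receptor segment Trav12-3 with 63 and 66, and Mir6390 with 30 and 60.

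Of 100 miRNA hairpins of the RefSeq sequence table in distant sequence, among which Mir101c is not counted, 7 had a distant peak within 1 kb in both libraries, 2 in shHMGB1 alone and 91 in neither. The share over hairpins outside distant sequence is not given here. Mature sequences of 4 of the miRNAs near such peaks are printed from RefSeq (GRCm38.p6), with the seed, bases 2 to 8, in capitals, since the first 2 share theirs.
mmu-miR-29a-3p: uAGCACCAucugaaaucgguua
mmu-miR-29b-3p: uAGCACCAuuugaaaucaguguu
mmu-miR-125b-5p: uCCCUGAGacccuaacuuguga
mmu-miR-6390: gAAUUGAUcaggauguaacca
The seed AGCACCA is common to miR-29a and miR-29b, a family known for targeting collagen messages, whose hairpins Mir29a (chr6:31062660-31062747) and Mir29b-1 (chr6:31063023-31063093) lie beside a single peak with a pileup of 15 (8.4 to 24.7) in each library. Mir125b-1 (chr9:41581926-41582002) lay near a peak with 12 (6.2 to 21.0) in each. Mir6390 (chr14:105623642-105623770) lay near one with 30 (20.2 to 42.8) for shCTRL and 60 (45.8 to 77.2) for shHMGB1, with intervals that did not overlap. These are pileups without centring, and the hairpin was picked after its values were seen. Their order was therefore not read as a change between conditions. A peak beside a hairpin says nothing of the level of the miRNA, which was not analysed here.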

How the data were processed

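ATAC-seq was analysed from 1 library of AB22 cells with shCTRL and 1 with shHMGB1, grouped by the silencing label. The submitters' processing notes name Trimmomatic 0.32, BWA 0.7.5-r404, SAMtools, bedtools, MACS2 and the build mm10 (GRCm38). Their settings, the read totals and what called the nucleosome-free regions are not given in the sources used here. Peaks are listed per library. The deposited score is 10 times the deposited −log10 q, cut to a whole number, and the deposited −log10 p and q belong to 1 library each. The deposited fold is the ratio between the pileup at a summit and the pileup expected. In the deposited nucleosome-free lists, which have no header, the columns were read as a fraction of nucleosome occupancy and as a signal of insertions, and only positions were used.

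Pileups were recovered from the folds as (pileup + 1)/(expected + 1), and came out whole within 0.00043 at every summit. Recovery, distances and overlaps were tested on simulated data. Rows of 1 interval were merged, keeping the highest summit. Distances used 20558 autosomal coding genes of the table, after leaving out 113 listed at positions of other scaffolds; the table has no exons or strand. Shares have exact Clopper-Pearson intervals, pileups exact Poisson intervals, medians order-statistic intervals and ratios conditional binomial intervals, all at 95%. Since fragments carry no molecular identifiers they need not be independent, and intervals cover counting error only. With 1 library a group no test was made. Alternatives changed the distance, the q value, list length, gene set, overlap, gap, summit tolerance and pileup minimum, and left out chromosomes 2 and 4. Added after seeing the data were genes of any kind, receptor segments as genes, positions below 4 Mb left out, a height of at least 5, and the 10 densest windows left out.

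The rule and gene lists were chosen with earlier results of these data known. Named peaks were the 8 tallest shared ones, the 5 tallest without a counterpart per library, the widest per library, the 5 with the most summits, the 5 densest windows, the 3 longest stretches, up to 4 members a gene list and 6 noncoding genes, leaving out model names (Gm or LOC and a number, or a Rik ending). The lncRNA promoters, the miRNAs, the motifs, the second set of 8 tall peaks and the other windows were chosen after their values were seen. Peak sequences were not used here, and 1 named peak and 1 list member are not reported here. Python 3.11.15, numpy 2.4.6, scipy 1.17.1, pandas 2.3.3 and matplotlib 3.10.9 were used.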

Additional observations from a re-analysis of the deposited data

How the results depend on the processing

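The main values are those of the report, and a value counts as moved where it left the 95% counting interval of the main one. In each pair shCTRL comes first. The ratio of numbers of distant peaks, 0.971, turned above 1 under 6 settings: 1.06 with −log10 q of at least 5, 1.12 with lists of equal length, 1.05 without chromosomes 2 and 4, and, added after seeing the data, 1.09 with genes of any kind, 1.30 with a height of at least 5 and 1.04 without the 10 densest windows. Its direction is therefore not a result.

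At over 50 kb the distant shares were 12.7% and 13.7%, another peak lay within 10 kb for 73.6% and 72.5%, and 62.6% of shHMGB1 peaks were shared. At over 250 kb these were 2.47% and 2.77%, 65.1% and 64.1%, and 59.4%, with a width of 157 bp in shCTRL. With −log10 q of at least 5, distant shares were 7.19% and 7.39%, sharing 79.4% and 74.3%, widths 285 and 315 bp, heights 8.59 and 11.3, neighbours within 10 kb 56.5% and 59.6%, and nucleosome-free regions 16.7% and 15%. With lists of equal length, shCTRL had 65.1% shared, a width of 182 bp, a height of 5.73, 68.7% with a neighbour and 9.74% with a nucleosome-free region, and shHMGB1 had 59.1% shared. With named coding genes only, distant shares were 8.40% and 9.05%, neighbours 72.8% and 71.7%, shCTRL sharing 57.9% and shHMGB1 width 171 bp. With an overlap of 50% of both peaks, sharing was 42.1% and 43.3%. With nucleosome-free regions wholly inside, 5.64% and 6.07% held one, which turns the order of the libraries. Gaps of 5 kb gave 61.6% and 59.7% with a neighbour, and 25 kb gave 82.4% and 81.7%. Without chromosomes 2 and 4, shCTRL sharing was 66.5%, neighbours 66.2% and 68.4%, and the shHMGB1 distant share 7.96%. The median log2 ratio of matched distant summits was 0.07 for a summed pileup of at least 60, here relative to all summits of that size.

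Of the added settings, genes of any kind gave distant shares of 0.808% and 0.997%, sharing of 64.5% and 59.2%, neighbours of 52.6% and 56.5%, a height of 5.73 in shCTRL, and a width of 183 bp and 7.43% with a nucleosome-free region in shHMGB1. Receptor segments as genes gave distant shares of 7.08% and 7.91%. A height of at least 5 gave distant shares of 7.2% and 7.84%, 77.5% of shCTRL peaks shared, widths of 237 and 215 bp, heights of 7.16 and 8.31, neighbours of 63.1% and 67.3% and nucleosome-free regions in 13.5% and 9.94%. Without the 10 densest windows, distant shares were 6.40% and 7.49%, shCTRL sharing 65.2%, widths 167 and 184 bp, shCTRL height 5.73, neighbours 66.1% and 67.8% and nucleosome-free regions 10.1% and 8.97%. The larger distant share in shHMGB1 was seen under every setting. Peaks 10 to 100 kb outside coding genes also made up a larger share in shHMGB1. The intervals of the distant share overlapped between the libraries with −log10 q of at least 5, and its order was reversed on chromosomes 6, 12 and 18. The order of sharing, of widths and of neighbours between the libraries changed with the setting, and the cause was not tested. No paired analysis was possible because each group holds 1 library. Low pileups limit sharing: a peak near the lowest pileup of its list may be present and unlisted in the other library.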

Other observations

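At Gm12111, an lncRNA promoter counted as open in shHMGB1 alone, the shHMGB1 peak had a pileup of 120, and shCTRL had a peak of 124 at chr11:32925371-32926162 that overlaps the shHMGB1 peak but ends before the promoter window. In all, 8 of the 54 windows counted as open in 1 library were of this kind. Among noncoding genes with names of their own, pileups near an end were 59 in shCTRL and 54 in shHMGB1 at Mirg, 28 and 33 at Morrbid, 17 and 16 at Mir205hg and 12 in each at Lncpint. These genes were chosen after their values were seen.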
